A study of Homo sapiens with 33 samples.

Results

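The response of CEM cells to the synthetic glucocorticoid prednisolone was read across all genes from 6 of the 33 RNA sequencing libraries of the study, 3 of untreated cells and 3 of cells given 10 µM prednisolone for 24 h. The members were chosen by their labelled titles, and no measured value entered the choice. CEM is an established human T-cell acute lymphoblastic leukaemia line that carries no labelled genetic change in either group, so the groups share everything the labels state except the drug. The study set glucocorticoid against Wnt signalling in leukaemia lines. Of Nalm6, a B-cell precursor line, 6 libraries, untreated or given 5 µM prednisolone for 24 h, are used only where a difference between the lines was tested. An alternative form of that test used 3 Nalm6 libraries given 100 nM dexamethasone for 24 h and 3 control libraries of their own. An alternative fit of all 3 CEM groups added 3 CEM libraries given 2 µM CHIR-99021 for 24 h. The labels do not say whether the 3 libraries of a group came from separate cultures, so p-values measure the spread between these libraries, which may be technical. The labels describe a medium with hormone-stripped serum for Nalm6 and its derivative and give none for CEM.

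Glucocorticoids bind the glucocorticoid receptor, encoded by NR3C1, which the HSP90 chaperone machine holds in the cytoplasm until hormone arrives. The bound receptor enters the nucleus, raises the transcription of some genes from palindromic response elements and lowers that of others. In immature lymphoid cells this leads to growth arrest and death, in which the BH3-only proteins of the BCL2 family take part, and glucocorticoids are therefore a mainstay of leukaemia treatment.

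Gene totals were 33838213 to 46149818 counts in the untreated libraries and 35097015 to 43432191 in the treated ones, and levels are given as counts per 1000000 (CPM) of these totals. At this depth 3 counts, the upper limit that a count of 0 allows, correspond to 0.0650 to 0.0887 CPM in the untreated libraries, an allowance for counting error only. The first principal component held 68.8% of the variance and separated the groups. Untreated library 2 stood apart from its group, with 329 CPM of the mitochondrial ribosomal RNA MT-RNR1 against 68.2 and 61.7 CPM in the other two. Reads outside any gene made up 19.3% to 19.8% of the untreated libraries and 20.4% to 21.4% of the treated ones. All 10 T-cell markers checked were detected and summed to 2865 to 2929 CPM untreated and 3010 to 3044 CPM treated. The 10 B-cell markers summed to 76.4 to 77.4 CPM and 90.1 to 96.5 CPM, with MS4A1 at 0 in all 6 libraries, and most of that sum came from CD79A (30.3 and 57.4 CPM), VPREB1 and IGLL1. The 9 myeloid markers summed to 1.67 to 1.89 CPM and 2.31 to 2.92 CPM, and the 9 erythroid markers to at most 0.118 and 0.143 CPM. The part of these markers in the results was not tested, and in bulk libraries fewer cells of a type and less RNA per cell cannot be told apart.

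Prednisolone changed the level of 7842 of 17381 genes tested (45.1%; edgeR quasi-likelihood test, Benjamini-Hochberg adjusted p under 0.05, which is what "rose" and "fell" mean throughout). Rises numbered 3873 (22.3% of the genes tested) and falls 3969 (22.8%). The change was 2-fold or more, at least 1 in size on the log2 scale, in 647 genes (3.72%). Those were 545 rises (3.14%) and 102 falls (0.587%), so most of the large changes were upward. The median log2 fold change of all genes was 0.02, and the quartiles lay at -0.15 and 0.22. Untreated and treated libraries did not overlap in 9191 genes (52.9%). With so large a share of genes called, the count of each gene group has to be read against these shares.

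**Figure D1:**
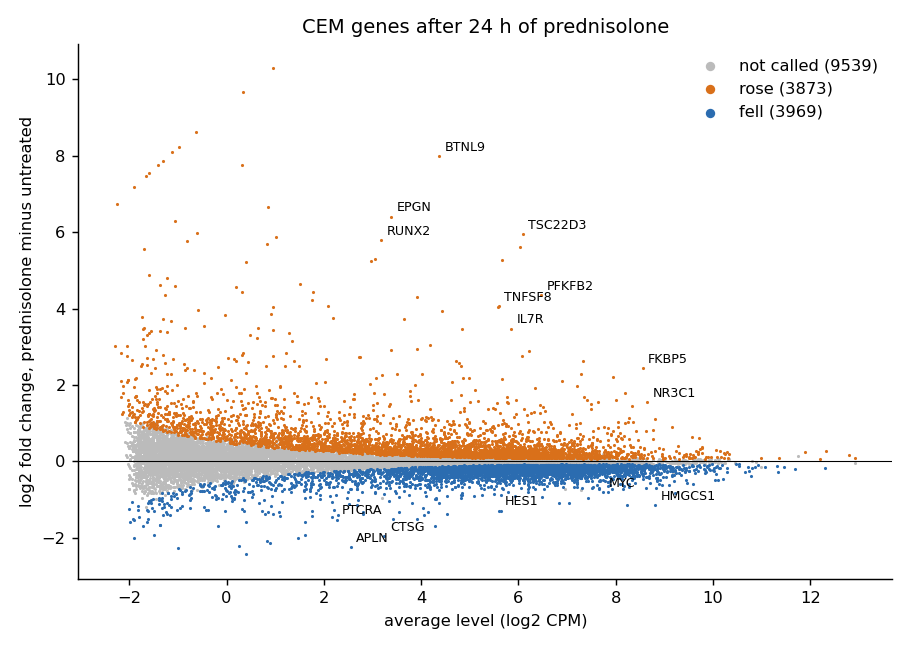
Each point is 1 of 17381 genes, with its average level (log2 CPM) on the horizontal axis and its log2 fold change, prednisolone minus untreated, on the vertical axis; genes that rose are orange, genes that fell are blue and the rest are grey. Among the labelled genes the highest value is 7.99 for BTNL9 and the lowest -2.25 for APLN.

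The receptor's own transcript was one of the clearest rises. NR3C1 (ENSG00000113580.15_1) stood at 202, 202 and 207 CPM in the untreated libraries and at 607, 604 and 607 CPM in the treated ones. The treated libraries were all about 3 times as high, and replicates differed by little. Its log2 fold change was 1.54 ± 0.03 (± SE; edgeR adjusted p = 1.42e-17). NR3C2, the mineralocorticoid receptor, which also binds cortisol, rose from 0.304 ± 0.0785 to 0.648 ± 0.0844 CPM (SD, n = 3), a log2 fold change of 1.02 at a very low level (0.67 in the counts without strand).

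The proteins that fold the receptor went the other way. Of 14 chaperones and co-chaperones listed, all tested, 10 fell and 1 rose. FKBP4, the immunophilin that carries the receptor towards the nucleus, stood at 176, 170 and 171 CPM untreated and at 115, 109 and 110 CPM treated, and its groups did not overlap. Its log2 fold change was -0.66 ± 0.03 (edgeR adjusted p = 1.94e-11). HSP90AB1, the constitutive HSP90, fell by 0.46 ± 0.03 on the log2 scale. The inducible HSP90AA1 stood at 1171, 1525 and 1115 CPM untreated and at 923, 948 and 891 CPM treated, again without overlap. Untreated library 2 was the highest of these 6, and the call was lost under robust moderation (log2 fold change -0.50, edgeR adjusted p = 0.0547 there and 3.73e-05 otherwise). PTGES3, the HSP90 co-chaperone p23, STIP1 and DNAJA1 fell by 0.31, 0.28 and 0.27. The single riser was FKBP5, the immunophilin that competes with FKBP4 and holds the receptor in a low-affinity state. It stood at 111, 127 and 108 CPM untreated and at 646, 661 and 621 CPM treated (log2 fold change 2.44 ± 0.05, edgeR adjusted p = 8.90e-17). Among 9 cofactors NCOA3 rose by 0.43 and SMARCA4, the chromatin remodelling ATPase, fell by 0.22.

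Genes listed as induced by glucocorticoids, some of them genes of lymphoid cells, rose almost as a block. Of 35 listed, 27 passed the filter on low counts, and of these 24 rose (88.9%; 18 by at least 1) and 1 fell (3.7%). Over all genes 22.3% rose, 3.14% by at least 1, and 22.8% fell. The list was drawn up with earlier results of these data known. TSC22D3, which encodes the glucocorticoid-induced leucine zipper GILZ, was at 1.97, 2.33 and 2.13 CPM untreated and at 140, 137 and 130 CPM treated. Every treated library was more than 50 times above every untreated one (log2 fold change 5.96 ± 0.06, edgeR adjusted p = 3.43e-21). The other 3 members of the TSC22 domain family, TSC22D1, TSC22D2 and TSC22D4, were not called. ZBTB16, the zinc finger factor PLZF, rose from 0.225 ± 0.0895 to 3.65 ± 0.268 CPM (log2 fold change 4.04). ISG20, an RNA exonuclease, rose from 4.73 ± 0.508 to 52.9 ± 1.49 CPM (3.46). GLUL, glutamine synthetase, rose from 281 ± 8.21 to 619 ± 11.3 CPM (1.11), and SGK1, the serum- and glucocorticoid-induced kinase, from 3.16 ± 0.0541 to 7.54 ± 0.456 CPM (1.22).

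Some classic targets moved little or against type. PER1, a clock repressor with strong receptor binding in many tissues, rose by only 0.40 ± 0.05. DUSP1, the phosphatase that turns off MAP kinases, was at 6.61, 7.39 and 6.95 CPM untreated and at 8.11, 9.37 and 8.92 CPM treated (log2 fold change 0.30 ± 0.08, edgeR adjusted p = 0.00552). Its groups did not overlap, but they lay close together. ANXA1, the anti-inflammatory annexin, was the member that fell, from 280 ± 11.4 to 232 ± 0.675 CPM (-0.31 ± 0.03, edgeR adjusted p = 4.29e-07). RGS2 and TSC22D1 were not called. KLF9 and P2RY14 were among the 8 listed genes whose counts were too low to test.

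**Figure D2:**
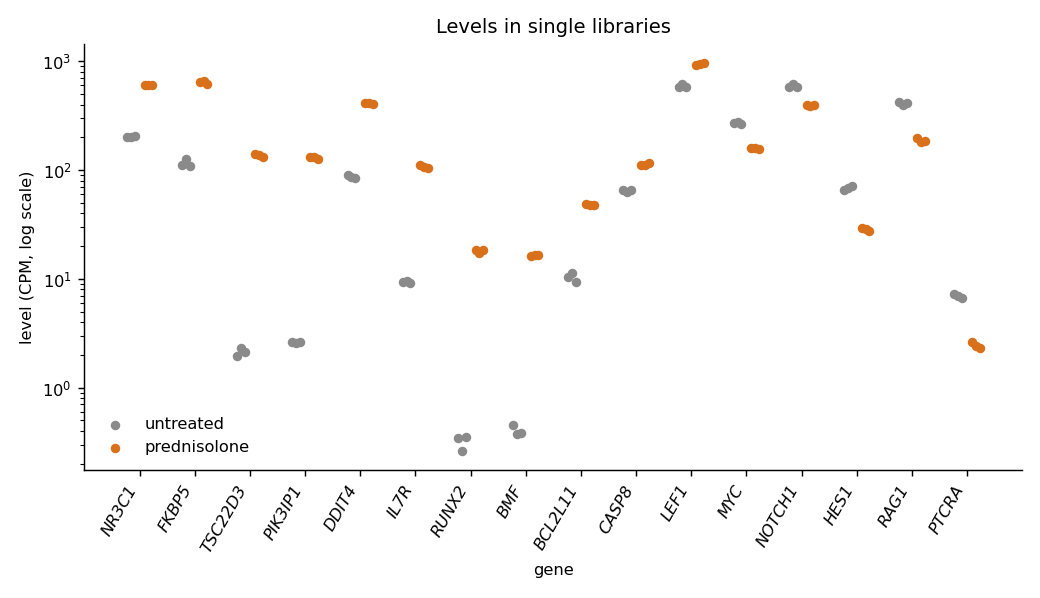
Points are single libraries (3 untreated in grey, 3 with prednisolone in orange) for 16 genes named in the text, and the vertical axis is the level in CPM on a log scale. The groups of all 16 genes shown are separate; TSC22D3, RUNX2 and PIK3IP1 have the widest gaps, and PTCRA, HES1, RAG1 and MYC lie lower with prednisolone.

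The 15 largest rises among genes with an average log2 CPM of at least 1 were a mixed group. BTNL9, a butyrophilin-like cell surface protein, went from 0.130, 0.132 and 0.236 CPM to 42.5, 40.1 and 43.5 CPM, the largest log2 fold change of the group at 7.99 ± 0.11 (edgeR adjusted p = 5.17e-19). It was nearly silent untreated and well expressed in each treated library. EPGN, epigen, a ligand of the EGF receptor, followed at 6.41 ± 0.12, from 0.236 ± 0.0270 to 20.9 ± 0.940 CPM. Of 13 butyrophilins listed 7 were tested, and the only other riser was BTN3A2 (0.23). Of 11 EGF-like ligands 2 were tested, and HBEGF was not called.

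RUNX2, the bone-forming transcription factor, stood at 0.347, 0.263 and 0.355 CPM untreated and at 18.6, 17.2 and 18.5 CPM treated (5.78 ± 0.12, edgeR adjusted p = 1.07e-16). Its relative RUNX1, which acts throughout blood formation, fell by 0.25. MACROD2, which removes ADP-ribose from proteins, rose by 5.28, and TG, thyroglobulin, by 4.64 from 0.204 ± 0.118 to 5.54 ± 0.0637 CPM. OLAH, a thioesterase that releases fatty acids, rose by 5.88 and FMO5, a flavin monooxygenase, by 4.08. CDO1, cysteine dioxygenase, which starts cysteine breakdown, rose by 4.32. RASD1, a small GTPase first described as induced by dexamethasone, rose by 4.24, and CFAP157, a cilium-associated protein, by 4.45. TNFSF8, the ligand of CD30, rose from 5.38 ± 0.131 to 92.3 ± 1.63 CPM (4.07 ± 0.04), whereas TNFRSF8, which encodes CD30 itself, fell by 0.58. In the counts taken without strand OLAH, RASD1 and CFAP157 rose by 3.03, 2.24 and 1.19. PIK3IP1, BMF and PFKFB2 complete the 15 and are described with their pathways.

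The 15 largest falls, again among genes with an average log2 CPM of at least 1, were smaller. Some genes of lower level, given further on, fell as far. APLN, the vascular peptide apelin, stood at 9.14, 9.65 and 9.49 CPM untreated and at 1.96, 1.83 and 2.31 CPM treated (log2 fold change -2.25 ± 0.10, edgeR adjusted p = 4.81e-12). Its groups were far apart. CTSG, the neutrophil protease cathepsin G, fell by 1.95 from 14.8 ± 1.24 CPM, and ASS1, the argininosuccinate synthase of arginine production, by 1.93 from 4.68 ± 0.0828 CPM. TSHR, the thyrotropin receptor, fell by 1.68 from 29.1 ± 0.194 CPM. CCR8, a chemokine receptor of skin-homing and regulatory T cells, fell from 21.8 ± 0.903 to 7.85 ± 0.703 CPM (-1.51). Signalling proteins in the group were the growth factor MDK (midkine, -1.41), the receptors FGFR3 (-1.42) and PTPRU (-1.43), the kinase DGKG (-1.39) and the pseudokinase CAMKV (-1.46). PRDM16, a transcription factor of stem and brown fat cells, fell by 1.57 and CHAT, the enzyme that makes acetylcholine, by 1.37. PTCRA is described with the T-cell genes. The remaining falls were the antisense RNA VAC14-AS1 (-2.00, and -0.61 in the counts without strand) and the pseudogene HNRNPA1P21 (-1.52), whose reads may be shared with near-identical copies, so its value is uncertain.

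The promoter windows of these genes were searched for the receptor's palindrome, since large rises are the genes where a nearby site could be looked for. Windows of 250 bases before to 50 bases after the start (RefSeq, GRCh38.p14) matched 11035 of the 17381 genes tested by symbol. The full consensus palindrome of the glucocorticoid response element, searched on both strands, was in 0 of them and in 1 of all 27305 windows in the table. A looser form of the palindrome with fewer fixed bases, which contains every match of the full one, was in 2 of 303 windows of genes that rose by at least 1 (0.660%). It was in 0 of 56 windows of genes that fell by at least 1, in 21 of the 11035 (0.190%) and in 0.388% of all windows. The 2 genes were TXNIP, an arrestin that blocks glucose uptake, and CPA3, a mast cell carboxypeptidase at 0.172 ± 0.0993 CPM untreated and 0.715 ± 0.183 CPM treated. They were singled out after their values were seen. Of the 15 largest rises 10 had a window, and none of these held a match. The 250 bases before the TXNIP start (chr1:145996580-145996829, minus strand, 5′ to 3′) are shown because TXNIP is the better expressed of the pair, with the match in capitals from base -175 to base -163 relative to the start.
TXNIP: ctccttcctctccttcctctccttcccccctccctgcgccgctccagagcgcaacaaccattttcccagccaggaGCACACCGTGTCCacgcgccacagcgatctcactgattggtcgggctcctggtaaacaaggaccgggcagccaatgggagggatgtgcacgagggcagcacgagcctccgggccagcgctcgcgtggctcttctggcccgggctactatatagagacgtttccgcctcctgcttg
A match is a description of the letters and not a shown binding site.

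In the BCL2 family the 2 BH3-only genes known for glucocorticoid-induced death in lymphoid cells stood out. Of 17 members listed 15 were tested, 5 rose and 5 fell (33.3% each). BMF was at 0.455, 0.373 and 0.384 CPM untreated and at 16.4, 16.6 and 16.5 CPM treated (log2 fold change 5.30 ± 0.11, edgeR adjusted p = 1.35e-16). BCL2L11, which encodes BIM, was at 10.3, 11.3 and 9.31 CPM untreated and at 48.9, 48.0 and 47.7 CPM treated (2.19 ± 0.06, edgeR adjusted p = 2.13e-15). In both genes every treated library lay above 4 times the highest untreated one. Among the other death-promoting members BIK and BID rose by 0.62 and 0.40.

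Other members of the family moved in the opposite sense or not at all. PMAIP1, the BH3-only protein NOXA, fell from 43.7 ± 2.00 to 23.8 ± 0.728 CPM (-0.91 ± 0.04). HRK fell from only 0.309 ± 0.0539 to 0.115 ± 0.103 CPM, and lost its call in 5 of the alternatives, DESeq2 among them (edgeR adjusted p = 0.0183; DESeq2 adjusted p = 0.0606). The survival genes BCL2L1, which encodes BCL-XL, and BCL2L2 fell by 0.42 and 0.38, and MCL1 rose by 0.19. BCL2 itself stood at 44.1, 41.4 and 48.0 CPM untreated and at 42.6, 42.3 and 45.1 CPM treated. The groups overlapped and BCL2 was not called (-0.07 ± 0.05, edgeR adjusted p = 0.270), although without untreated library 2 it was called at -0.12 (edgeR adjusted p = 0.0207). The effector BAX fell by 0.10, a call lost in 7 of the alternatives, and BAK1, BBC3 (PUMA) and BAD were not called.

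Downstream, 10 of 22 tested members of the death receptor and caspase list rose (45.5%) and 2 fell (9.09%). CASP8, the caspase that death receptors activate, stood at 65.3, 62.5 and 65.7 CPM untreated and at 111, 111 and 116 CPM treated (0.78 ± 0.03, edgeR adjusted p = 2.69e-12). CASP9, the initiator of the mitochondrial route, and CASP10 rose by 0.68 and 0.40. CYCS, cytochrome c, fell by 0.51. Inhibitors of these steps rose as well: BIRC3, an inhibitor of apoptosis, from 25.9 ± 0.879 to 84.4 ± 2.39 CPM (1.68) and CFLAR, the decoy of CASP8, by 0.67.

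Among genes of T-cell identity more rose than fell, and several markers of the immature stage were among the falls. Of 59 listed, 55 were tested, 26 rose (47.3%) and 11 fell (20%), with a median log2 fold change of 0.06. RAG1, the recombinase that cuts antigen receptor genes, stood at 418, 393 and 415 CPM untreated and at 198, 182 and 186 CPM treated (-1.14 ± 0.04, edgeR adjusted p = 3.36e-14). PTCRA, the pre-T-cell receptor alpha chain of immature thymocytes, was at 7.22, 6.89 and 6.71 CPM untreated and at 2.62, 2.41 and 2.34 CPM treated (-1.52 ± 0.10, edgeR adjusted p = 8.11e-10). In both the treated libraries lay far below the untreated ones. DNTT, the polymerase that adds bases at receptor junctions, fell by 0.62, and RAG2, the partner of RAG1, was not called (54.6 ± 1.88 and 54.2 ± 1.65 CPM).

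The CD1 lipid-presenting molecules, which mark cortical thymocytes, all fell. CD1A went from 95.3, 85.0 and 89.0 to 57.8, 57.1 and 58.3 CPM (log2 fold change -0.67 ± 0.04, edgeR adjusted p = 1.88e-10). CD1C, CD1E, CD1D and CD1B fell by 0.59, 0.53, 0.48 and 0.40, and none of the 5 had overlapping groups.

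Other T-cell genes were divided. The 8 tested genes of the T-cell receptor complex gave 2 rises (25%) and 1 fall, and the 10 T-cell markers 3 rises and 2 falls. TRAC, the constant region of the T-cell receptor alpha chain that replaces PTCRA, rose from 8.79 ± 0.939 to 16.8 ± 1.04 CPM (0.90 ± 0.08). CD8A, a co-receptor, rose from 16.1 ± 0.528 to 40.1 ± 1.79 CPM (1.29 ± 0.05, edgeR adjusted p = 5.51e-13). CD8B, CD2 and CD4 rose by 0.86, 0.74 and 0.63, and the receptor-proximal kinase TXK by 2.30 from 3.79 ± 0.228 CPM. Of 22 T-cell receptor signalling genes 14 rose (63.6%) and 1 fell. The CD3 chains moved little: CD3D rose by 0.20, CD3G was not called, and CD3E was called only without untreated library 2, under the replicate block or with no filter. BCL11B, which commits precursors to the T lineage, fell by 0.31, MEF2C and RUNX1 by 0.29 and 0.25, and TAL1, a factor active in T-cell leukaemia, was not called (83.6 ± 2.07 and 82.9 ± 1.06 CPM).

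Notch signalling drives early T-cell growth and T-cell leukaemia. Of 34 genes of the pathway 26 were tested, 6 rose (23.1%) and 8 fell (30.8%), shares not far from those of all genes. Among the receptors NOTCH1 stood at 576, 615 and 585 CPM untreated and at 395, 390 and 400 CPM treated, without overlap (-0.61 ± 0.03, edgeR adjusted p = 2.11e-11). NOTCH3 rose by 0.45 from 46.4 ± 4.77 CPM and NOTCH4 by 1.71 from 1.26 ± 0.186 CPM. Among the targets HES1, the repressor that Notch induces, went from 65.1, 68.3 and 70.6 to 29.2, 28.6 and 27.3 CPM (-1.29 ± 0.04, edgeR adjusted p = 6.19e-14). HES4 fell by 1.01. DTX1, also a target, was not called (9.87 ± 0.670 and 9.39 ± 0.741 CPM), and NALT1, an antisense RNA beside NOTCH1 that was singled out after its value was seen, fell by 0.90. LFNG, which glycosylates the receptors, rose by 1.26. The ligands DLL1, DLL4 and JAG2 were not called.

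In cytokine signalling the receptor IL7R, for an interleukin that keeps developing T cells alive, gave the largest change. IL7R was at 9.45, 9.63 and 9.25 CPM untreated and at 110, 107 and 105 CPM treated (log2 fold change 3.48 ± 0.04, edgeR adjusted p = 5.09e-20). Each treated library was more than 10 times above each untreated one. Of 47 genes of the cytokine receptor and JAK-STAT list 40 were tested, 14 rose (35%) and 8 fell (20%). The kinase JAK1 rose from 134 ± 3.10 to 239 ± 3.54 CPM (0.80) and JAK2 by 0.55. STAT4 rose by 2.62 from 0.309 ± 0.0988 CPM, while STAT5A fell by 0.12 and STAT5B was not called. Among feedback genes SOCS1, which blocks JAK kinases, stood at 3.40, 4.15 and 2.69 CPM untreated and at 27.3, 26.5 and 27.4 CPM treated (2.93 ± 0.09, edgeR adjusted p = 2.40e-14), whereas CISH, a target of STAT5, fell by 0.41. Among the other receptors IL15RA fell by 0.55, and IL2RG, IL2RB and IL4R were not called.

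Brakes on the PI3K, AKT and mTOR growth pathway rose more than its activators. PIK3IP1, a transmembrane inhibitor of PI3K, stood at 2.64, 2.57 and 2.60 CPM untreated and at 132, 133 and 125 CPM treated (log2 fold change 5.61 ± 0.05, edgeR adjusted p = 3.43e-21). Of 21 brakes, all tested, 12 rose (57.1%; 6 by at least 1) and 5 fell (23.8%). Of 18 activators 5 rose (27.8%; 1 by at least 1) and 4 fell (22.2%). DDIT4, the stress protein REDD1 that restrains mTORC1, rose from 87.5 ± 2.86 to 410 ± 7.75 CPM (2.20 ± 0.03, edgeR adjusted p = 1.45e-18). SESN1 and SESN3, sestrins that sense amino acids, rose by 1.75 and 1.38, CASTOR1, the arginine sensor, by 1.05, and DEPTOR, which binds mTOR, by 1.90 at 0.518 CPM treated. The activator that rose most was PIK3R1, the regulatory subunit, from 81.6 ± 2.78 to 196 ± 3.95 CPM (1.24). The brakes that fell were EIF4EBP1 (-0.84), TRIB3 (-0.70), DDIT4L, SESN2 (-0.34) and PHLPP2, of which EIF4EBP1, TRIB3 and SESN2 are also targets of ATF4, described below. The catalytic subunits PIK3CA and PIK3CB, AKT1 and MTOR were not called.

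MYC, the transcription factor that drives ribosome and nucleotide production, fell, with every treated library below every untreated one. It stood at 270, 278 and 265 CPM untreated and at 158, 158 and 157 CPM treated (log2 fold change -0.81 ± 0.03, edgeR adjusted p = 5.32e-13). In its network MXD4, a rival for the partner MAX, rose from 32.5 ± 1.70 to 70.1 ± 0.936 CPM (1.08), and MXI1, another rival, fell by 0.42. MYCN fell by 0.16. MYCL rose by 0.60, but without treated library 1 it was at 0.332 and not called (edgeR adjusted p = 0.182).

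Ribosome assembly genes fell almost without exception, by small amounts. Of 66 listed, 64 were tested, 58 fell and 1 rose, with a median log2 fold change of -0.33, against 22.8% falls and a median of 0.02 over all genes. The 53 nucleolar members gave 51 falls and no rise. BYSL, which acts in small subunit assembly, went from 48.4, 49.8 and 47.3 to 29.9, 29.1 and 30.7 CPM (-0.73 ± 0.04, edgeR adjusted p = 7.75e-11). NOLC1, a nucleolar scaffold, fell by 0.64, DDX21, an RNA helicase, by 0.59 and NCL, nucleolin, by 0.48 from 1220 ± 79.8 CPM. The exception was TAF1C, a factor of RNA polymerase I, which rose by 0.29.

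The ribosomal proteins themselves did not follow. Of 79 cytosolic ones 78 were tested, 20 rose (25.6%) and 8 fell (10.3%), with a median of 0.03 and no change of 2-fold. RPS27 rose by 0.26 from 750 ± 17.0 CPM, and RPS10, at only 8.04 CPM untreated, fell by 0.36. These counts moved with single libraries: without untreated library 2 the falls were 16, and without treated library 1 the rises were 10. Mitochondrial ribosomal proteins gave 41 falls and 2 rises of 77 tested, with a median of -0.13. Translation factors gave 21 falls and 5 rises of 34 tested, with EIF5A, the hypusine-bearing factor, falling by 0.45 from 525 ± 16.7 CPM.

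**Figure D3:**
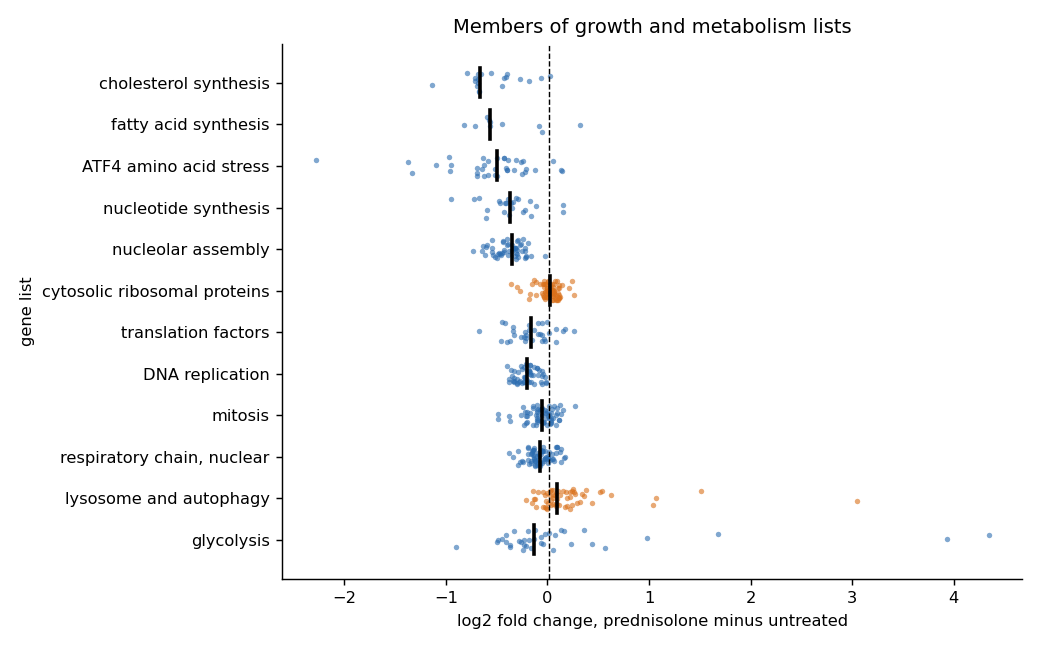
Each point is 1 tested member of the gene list named on the vertical axis, placed at its log2 fold change, prednisolone minus untreated; points are blue where the list median is below 0 and orange where it is above, black bars are list medians and the dashed line is the median of all genes, 0.02. Cholesterol synthesis (-0.66), amino acid stress genes of ATF4 (-0.50) and nucleolar genes (-0.35) lie to the left, and cytosolic ribosomal proteins (0.03) on the line.

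Nucleotide synthesis fell with them. All 24 enzymes of purine, pyrimidine and one-carbon synthesis were tested, 22 fell and 2 rose, with a median of -0.37. MTHFD2, the mitochondrial folate enzyme, stood at 223, 219 and 231 CPM untreated and at 116, 124 and 115 CPM treated (-0.95 ± 0.04, edgeR adjusted p = 4.52e-13). MTHFD1L, next in the same folate route, fell by 0.72 and PAICS and PPAT, of purine synthesis, by 0.60 each. CAD, the first enzyme of pyrimidine synthesis, fell by 0.47. ATIC fell by 0.68, but its highest value was in untreated library 2 (71.0 CPM against 43.7 and 43.1), and it was not called under robust moderation (edgeR adjusted p = 0.105) and fell by 0.397 without that library. ADSL and CTPS2 rose by 0.15 each, and CTPS2 was at 0.088 and not called without untreated library 2.

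The promoters of these groups were looked at for the letters CACGTG, the E-box that MYC and other factors recognise, a search added after the values were seen. It was in 18 of 46 nucleolar genes with a window (39.1%) and in 6 of 20 nucleotide synthesis genes (30.0%). The share was 12.7% of all genes that fell and had a window, 10.0% of all 11035 tested genes with a window and 7.43% of all windows in the table. Both groups were chosen by function, so these shares describe the groups and not the response to prednisolone. CACGTG reads the same on both strands. The falling member of each group with the lowest log2 fold change and a match before the start is shown, 250 bases ending at the start (RefSeq, GRCh38.p14), with the match in capitals. EBNA1BP2, a nucleolar assembly factor, which fell by 0.53, is at chr1:43172571-43172820 on the minus strand, and MTHFD1L at chr6:150866236-150866485 on the plus strand.
EBNA1BP2: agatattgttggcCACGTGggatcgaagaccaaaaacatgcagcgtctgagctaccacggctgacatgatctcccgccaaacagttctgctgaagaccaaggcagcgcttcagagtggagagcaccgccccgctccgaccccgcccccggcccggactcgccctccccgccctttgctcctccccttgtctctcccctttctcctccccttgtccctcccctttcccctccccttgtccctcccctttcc
MTHFD1L: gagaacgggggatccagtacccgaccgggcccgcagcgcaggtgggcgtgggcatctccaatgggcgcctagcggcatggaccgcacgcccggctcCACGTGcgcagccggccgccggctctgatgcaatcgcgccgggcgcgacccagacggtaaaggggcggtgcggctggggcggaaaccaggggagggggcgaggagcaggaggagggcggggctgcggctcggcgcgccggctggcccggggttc
The matches lie at bases -237 to -232 and -154 to -149 from the start.

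Genes of the amino acid stress response, which the factor ATF4 controls, fell together. Of 38 listed, 37 were tested, 33 fell (4 by at least 1) and 1 rose, with a median log2 fold change of -0.50. ATF4 itself fell by 0.43 from 515 ± 8.55 to 391 ± 4.87 CPM. SLC7A11, the cystine transporter, stood at 32.6, 32.0 and 34.5 CPM untreated and at 13.3, 13.0 and 12.7 CPM treated (-1.37 ± 0.05, edgeR adjusted p = 4.16e-13). CHAC1, which degrades glutathione, went from 8.95, 9.87 and 10.6 to 3.85, 3.87 and 4.19 CPM (-1.33 ± 0.09, edgeR adjusted p = 1.43e-09). In both every treated library was more than 2-fold below every untreated one. The serine and proline enzymes PSAT1 and PYCR1 fell by 1.10 and 0.97, the leucine transporter SLC7A5 by 0.41 and ATF5, a related factor, by 0.96. CBS, of cysteine synthesis, fell by 2.28 at 0.741 CPM untreated. SLC38A2 rose by 0.15, and ASNS, asparagine synthetase, was not called (2.09 ± 0.480 and 2.37 ± 0.524 CPM). Beside them GPT2, the mitochondrial alanine transaminase, fell from 2.89 ± 0.127 to 0.662 ± 0.109 CPM (-2.14).

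The letters TGATGNAA, the core of the element to which ATF4 and C/EBP factors bind, were also searched after the values were seen, on both strands. They were in 11 of 33 genes of the list with a window (33.3%), against 1.75% of the tested genes with a window and 3.67% of all windows. Among all genes that fell and had a window the share was 1.69%. The list was made of genes that ATF4 controls, so its share describes the list and not the response to prednisolone. CHAC1 is shown, the falling member with the lowest log2 fold change and a match before the start (chr15:40953221-40953470, plus strand, RefSeq, GRCh38.p14), with the match, on the opposite strand, in capitals at bases -209 to -202.
CHAC1: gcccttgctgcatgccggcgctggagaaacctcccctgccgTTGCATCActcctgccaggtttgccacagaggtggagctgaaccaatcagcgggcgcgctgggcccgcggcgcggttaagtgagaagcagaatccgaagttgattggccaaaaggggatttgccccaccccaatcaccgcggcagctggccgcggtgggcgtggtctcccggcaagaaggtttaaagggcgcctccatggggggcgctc
ASNS, which was not called, was also among the 11.

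Sterol and fatty acid synthesis fell as well. Of 20 enzymes of cholesterol synthesis, all tested, 18 fell and none rose, with a median log2 fold change of -0.66. HMGCS1, which makes the first committed intermediate, stood at 597, 628 and 614 CPM untreated and at 280, 290 and 283 CPM treated (-1.14 ± 0.03, edgeR adjusted p = 2.83e-15). The groups were far apart. LSS, lanosterol synthase, fell by 0.80, and TM7SF2 and SC5D were the enzymes not called. Among uptake and control genes the sterol sensor INSIG1 fell by 0.38 and the regulators SREBF1 and SREBF2 by 0.23 and 0.32, while the ubiquitin ligase MYLIP rose by 0.60. The exporter ABCA1 fell by 0.37. In fatty acid synthesis 8 of 10 tested genes fell and 1 rose: FASN, the synthase, went from 758 ± 40.1 to 439 ± 15.4 CPM (-0.82), and the desaturases FADS1 and SCD fell by 0.72 and 0.59. Of 15 tested oxidation genes 3 fell and 4 rose. The letters TCACNCCAC, a sterol element, were in 0 of 15 cholesterol synthesis windows and in 1.14% of tested genes with a window, which says only that these letters are not in those windows.

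Glucose handling was divided. Of 39 genes listed 37 were tested, 9 rose (24.3%) and 19 fell (51.4%), with a median of -0.13. PFKFB2, whose product switches on phosphofructokinase, rose from 8.27 ± 0.289 to 172 ± 5.63 CPM (4.34 ± 0.04, edgeR adjusted p = 3.43e-21). HKDC1, a hexokinase relative, rose from 2.65 ± 0.119 to 41.3 ± 2.43 CPM (3.93). TXNIP rose from 77.3 ± 2.02 to 253 ± 10.1 CPM (1.68 ± 0.03, edgeR adjusted p = 1.07e-16), with the groups far apart. Of the 18 enzymes tested 10 fell and 2 rose. LDHA fell by 0.49, HK2 by 0.41 and ENO1 by 0.37 from 1963 ± 63.9 CPM. The transporter SLC2A1 fell by 0.23, and ALDOA, PKM, HK1, PFKP and LDHB were not called.

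Cell cycle genes fell slightly. All 53 DNA replication genes were tested, 44 fell and none rose, but the median was only -0.21 and the lowest -0.40 (POLD2, a polymerase delta subunit). MCM6, of the replicative helicase, stood at 384, 413 and 367 CPM untreated and at 306, 310 and 299 CPM treated (-0.38 ± 0.04, edgeR adjusted p = 3.07e-07), and RRM2, of ribonucleotide reductase, fell by 0.33. The groups did not overlap in either. Of 10 E2F family members 6 fell and none rose, E2F1 by 0.29, and of 29 chromatin assembly and DNA repair genes 21 fell and 2 rose. Of 66 mitosis genes 27 fell (40.9%) and 10 rose (15.2%) with a median of -0.05: the phosphatase CDC25A and the kinetochore gene CENPH fell by 0.49 each, SMC4, a condensin, rose by 0.27, and PLK1 and AURKA, the mitotic kinases, were not called. Without treated library 2 the rises were 4 in place of 10.

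Cyclin CCND3, the D-type cyclin of lymphoid cells, went from 566, 568 and 569 to 445, 441 and 434 CPM (-0.40 ± 0.03, edgeR adjusted p = 1.59e-09). Its partner CDK4 fell by 0.34. CDK6, the most abundant kinase of the list at 1967 ± 52.9 CPM untreated, fell by 0.08 with overlapping groups, and lost the call in 3 alternatives. CDKN1B, the inhibitor p27, rose by 0.12, while CDKN1A, the inhibitor p21, fell from 2.50 ± 0.441 to 1.14 ± 0.0825 CPM. The anti-proliferative genes BTG1 and BTG2, which recruit the deadenylase complex, moved far more. BTG1 stood at 45.9, 44.8 and 42.6 CPM untreated and at 196, 197 and 197 CPM treated (2.12 ± 0.03, edgeR adjusted p = 4.24e-18), and BTG2 rose by 1.52. Of the 5 tested members of that family 4 rose, and BTG3 fell by 0.45.

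**Figure D4:**
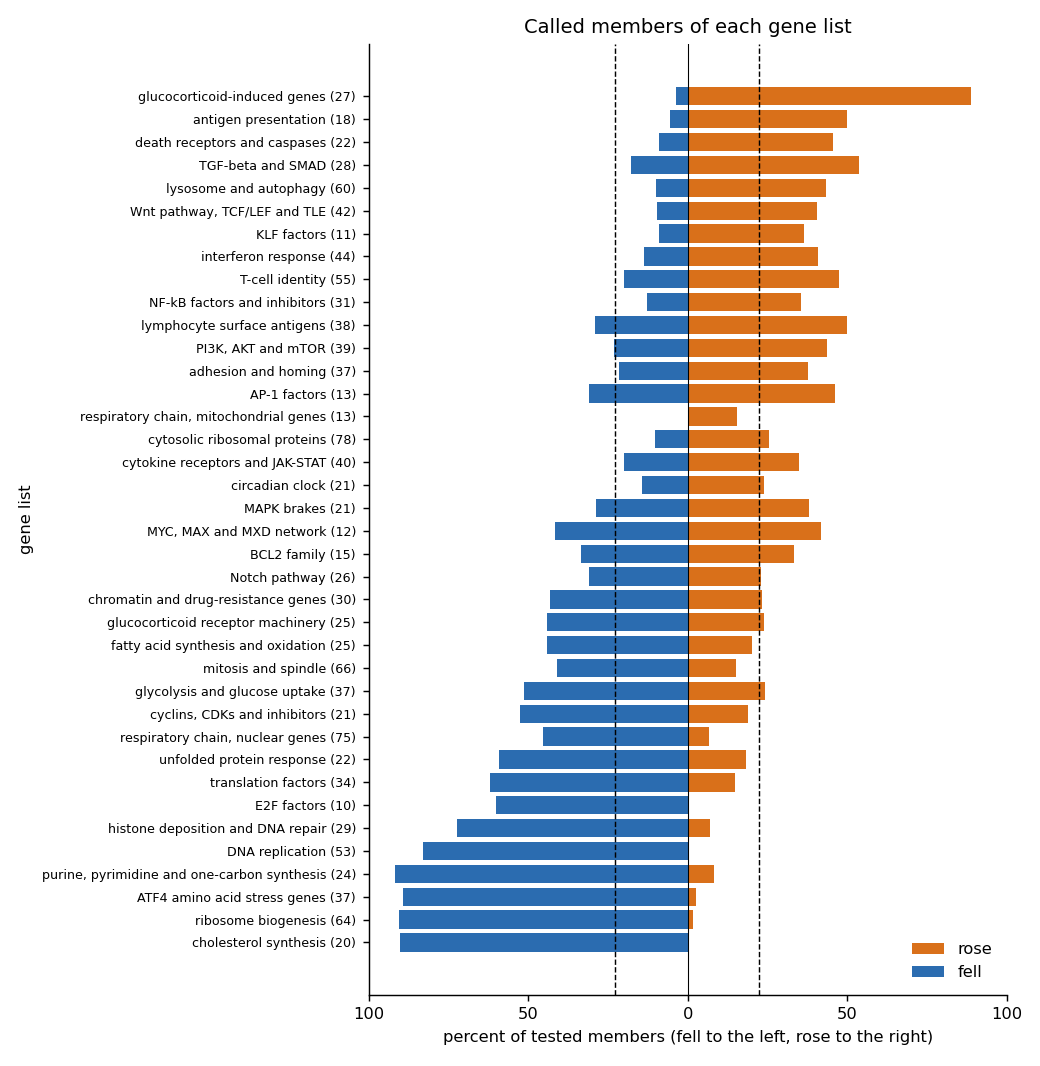
Horizontal bars give, for each gene list shown, of at least 10 tested members, the percentage of tested members that rose (orange, to the right) and fell (blue, to the left), with the number tested in brackets; dashed lines mark the shares over all genes, 22.3% and 22.8%. Cholesterol synthesis, ATF4 genes, nucleotide synthesis, ribosome biogenesis and DNA replication reach past 80% on the blue side, and the glucocorticoid-induced list is the longest orange bar.

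Protein folding and turnover genes were lower too. Of 22 genes of the endoplasmic reticulum stress response 13 fell (59.1%) and 4 rose (18.2%). HYOU1 and HSPA5 (BiP), both luminal chaperones, fell by 0.43 and 0.38, HSPA5 by 0.228 without untreated library 2. All 9 genes of the cytosolic chaperonin CCT were tested and 8 fell, CCT5 by 0.50 from 535 ± 18.7 CPM. Proteasome subunits gave 31 falls and 3 rises of 47 tested, and PSMB8, an immunoproteasome subunit, was among the rises (0.23). Nuclear pore genes gave 18 falls and no rise of 22, and importins and exportins 14 falls and 1 rise of 19.

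Lysosome and autophagy genes leaned the other way, with 26 rises (43.3%) and 6 falls (10.0%) of 60 tested and a median of 0.10. TP53INP1, which binds LC3 on autophagosomes, stood at 3.86, 3.77 and 4.11 CPM untreated and at 35.1, 32.1 and 31.7 CPM treated (3.05 ± 0.07, edgeR adjusted p = 3.08e-16). SMPD1, the acid sphingomyelinase, and GABARAPL1, an LC3 relative, rose by 1.51 and 1.04. CTSB and CTSZ rose by 0.63 and 1.07, but neither was called in the counts taken without strand (log2 fold changes 0.010 and 0.20, edgeR adjusted p = 0.892 and 0.0897).

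Respiratory chain genes of the nucleus gave 34 falls and 5 rises of 75 tested, with a median of -0.07. The 13 protein-coding genes of mitochondrial DNA gave 2 rises and no fall. Untreated library 2, high in mitochondrial RNA, decided that count: without it 12 of the 13 were called as rises and 1 as a fall. MT-CO3 stood at 3324, 3791 and 3183 CPM untreated and at 4203, 4271 and 4041 CPM treated (0.25 ± 0.05), and lost its call under robust moderation (edgeR adjusted p = 0.000207, there 0.0694).

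Among transcription factor families, the KLF factors gave 4 rises (36.4%) and 1 fall of 11 tested. KLF2, which keeps T cells quiescent, rose from 2.58 ± 0.547 to 8.01 ± 0.407 CPM (1.58) and KLF13 from 191 ± 5.54 to 431 ± 5.996 CPM (1.14), while KLF16 fell by 0.74. In AP-1, JUN stood at 36.8, 40.5 and 37.4 CPM untreated and at 108, 99.9 and 93.4 CPM treated (1.36 ± 0.05, edgeR adjusted p = 3.98e-13). FOS rose by 1.15, and JUNB was not called. Of the 13 AP-1 genes tested 6 rose (46.2%) and 4 fell (30.8%), with a median of -0.06 and a lowest value of -0.69. Of 21 tested clock genes 5 rose (23.8%, near the share of all genes) and 3 fell (14.3%): NFIL3, a repressor, rose by 2.29 from 5.46 ± 0.0853 CPM, while PER3 and PER2 fell by 0.37 and 0.21. In the NF-kB list 11 of 31 rose (35.5%) and 4 fell (12.9%). NFKBIA, the inhibitor that holds NF-kB in the cytoplasm, rose from 44.7 ± 2.06 to 109 ± 4.19 CPM (1.26), and the inhibitor TNFAIP3 fell by 0.42. Among brakes on MAP kinase signalling SPRY4 and DUSP10 rose by 1.80 and 1.12, and DUSP6 was not called. Of the 21 brakes tested 8 rose (38.1%) and 6 fell (28.6%), with a lowest value of -0.48.

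The Wnt pathway, the other subject of the study, leaned upward. Of 62 genes listed 42 were tested, 17 rose (40.5%) and 4 fell (9.52%), with a median of 0.14. ROR1, a Wnt co-receptor, rose by 3.76 from 0.630 ± 0.247 to 8.55 ± 0.645 CPM. FZD6 and FZD7, receptors, rose by 0.63 and 0.82, the latter call lost in 5 of the alternatives. LEF1, a nuclear effector, stood at 584, 612 and 582 CPM untreated and at 928, 936 and 956 CPM treated (0.64 ± 0.03, edgeR adjusted p = 4.31e-12), with no overlap. TCF7, its partner in T cells, was called at 0.13 but lost the call in 7 of the alternatives, and was at 0.080 without untreated library 1 and 0.205 without untreated library 2. Among the co-repressors TLE2 and TLE4 rose by 0.64 and 0.18, and TLE1 was not called (0.07), although without untreated library 2 it was called at 0.096 (edgeR adjusted p = 0.0174). AXIN2, a feedback target, was not called (0.994 ± 0.139 and 1.06 ± 0.248 CPM). DVL1, DVL2, LRP6 and NKD2 fell by at most 0.33. In the TGF-beta list 15 of 28 rose (53.6%) and 5 fell (17.9%), with the receptor TGFBR2 rising from 42.2 ± 2.54 to 85.2 ± 3.27 CPM (0.98) and SMAD3 by 0.67.

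Cell surface and homing genes changed in part. Of 38 tested lymphocyte antigens 19 rose (50%) and 11 fell (28.9%), the falls including the 5 CD1 genes. CD69, the early activation antigen that retains cells in tissue, rose from 33.5 ± 2.11 to 129 ± 2.31 CPM (1.91), CD53, a tetraspanin, from 83.6 ± 4.14 to 259 ± 1.85 CPM (1.60) and CD52, the target of alemtuzumab, by 0.44. CD38 was not called. TFRC, the transferrin receptor, fell by 0.32. Among homing receptors ITGA6, the laminin receptor chain linked to leukaemia in the nervous system, stood at 130, 127 and 133 CPM untreated and at 471, 463 and 453 CPM treated (1.80 ± 0.03, edgeR adjusted p = 9.55e-18). CCR9, of gut homing, rose by 1.60 (0.964 in the counts without strand), CCR4 by 0.88 and CXCR4 from 346 ± 4.48 to 529 ± 5.56 CPM (0.58), while ITGA1 fell by 1.12 and S1PR1 by 0.26. HLA-F rose by 2.78 from 0.320 ± 0.161 CPM, and HLA-B and B2M were not called. Interferon response genes gave 18 rises (40.9%) and 6 falls (13.6%) of 44 tested, and apart from ISG20 no rise reached 1 (IFIT2 0.82, SP100 0.72), and IRF1 fell by 0.24. Among granule proteins PRF1, perforin, rose by 1.97 from 0.607 ± 0.119 CPM and SRGN, the granule proteoglycan, by 1.62.

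Non-coding genes rose more often than they fell. Of 1216 antisense genes tested 251 rose (20.6%) and 63 fell (5.18%), and of 1025 long intergenic ones 225 rose (21.95%) and 78 fell (7.61%). Of 12331 protein-coding genes 2991 rose (24.3%) and 3672 fell (29.8%). The shares of rises were thus near or below the 22.3% over all genes, and the difference from protein-coding genes lay mainly in the fewer falls. The share of reads outside genes was also higher in the treated libraries, as given above, and its part in these counts was not tested. Counting used the strand, and the other strand held 1 read for every 14.4 to 14.6, so part of an antisense count can come from the partner gene.

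The response was then compared with that of Nalm6, with the line, the dose (10 against 5 µM), the library set and possibly the medium, which the labels give for Nalm6 alone, changing together, so that their parts cannot be told apart. The test of the difference itself, an interaction in edgeR over 12 libraries, called 5513 of 20491 genes (26.9%), 3020 higher in CEM (14.7%) and 2493 lower (12.2%), where higher means a log2 fold change above that of Nalm6. It reached an absolute value of at least 1 in 992 genes (4.84%). The receptor rose in both lines, in Nalm6 from 241 to 558 CPM, and NR3C1 differed by 0.37 (edgeR adjusted p = 6.30e-07). TSC22D3 rose by 1.98 more in CEM, although its treated level was lower there (136 against 348 CPM in Nalm6). Set against the dexamethasone libraries of Nalm6, the difference of TSC22D3 was 0.711 (edgeR adjusted p = 1.95e-06). ZBTB16 and TP53INP1 rose by 4.54 and 2.56 less in CEM. RUNX2, EPGN and MACROD2 had higher log2 fold changes in CEM, by 6.25, 6.49 and 4.77 (edgeR adjusted p = 1.03e-11, 7.29e-11 and 2.00e-17), RUNX2 by 4.08 in the counts without strand. In Nalm6 RUNX2 and EPGN were not called and lay at very low levels. RUNX2 was at 0.254 CPM untreated and 0.195 CPM treated there, and EPGN at 0.214 and 0.228 CPM. MACROD2 rose in Nalm6 by 0.52. TLE1, which rose in Nalm6, had a log2 fold change lower by 1.71 in CEM (edgeR adjusted p = 2.57e-16).

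The growth groups separated the lines by size. DNA replication genes had a median log2 fold change of -0.21 in CEM and -0.67 in Nalm6, and 46 of the 53 differed upward in CEM and 1 downward. Mitosis genes differed upward in 37 of 66 and downward in 3, and glycolysis genes in 25 and 4 of 37. CCND3, CDK4 and CDK6 fell by 0.42, 0.47 and 0.68 less in CEM (edgeR adjusted p = 1.85e-06, 3.20e-07 and 3.00e-09). Ribosome biogenesis was closer, with medians of -0.33 and -0.42 and 16 of 64 higher and 2 lower. Cholesterol synthesis went the other way, with medians of -0.66 and -0.32 and 13 of 20 genes lower in CEM and 2 higher. HMGCS1 was among those lower in CEM, with a difference of -0.38. The endoplasmic reticulum stress list was lower in CEM in 13 of 22 and higher in 2, and the KLF factors lower in 8 of 11 and higher in none.

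In the death genes BMF and BCL2L11 rose by 1.20 and 0.77 more in CEM (edgeR adjusted p = 0.000110 and 1.61e-08), and BCL2L11 by 0.433 against the dexamethasone libraries. BCL2, not called in CEM, fell from 192 to 75.9 CPM in Nalm6, a difference of 1.32 (edgeR adjusted p = 2.85e-14). The log2 fold change of CASP8 was higher by 0.87 in CEM. Several genes moved in opposite directions in the 2 lines, among them IL7R, RAG1, LEF1 and HES1.

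**Figure D5:**
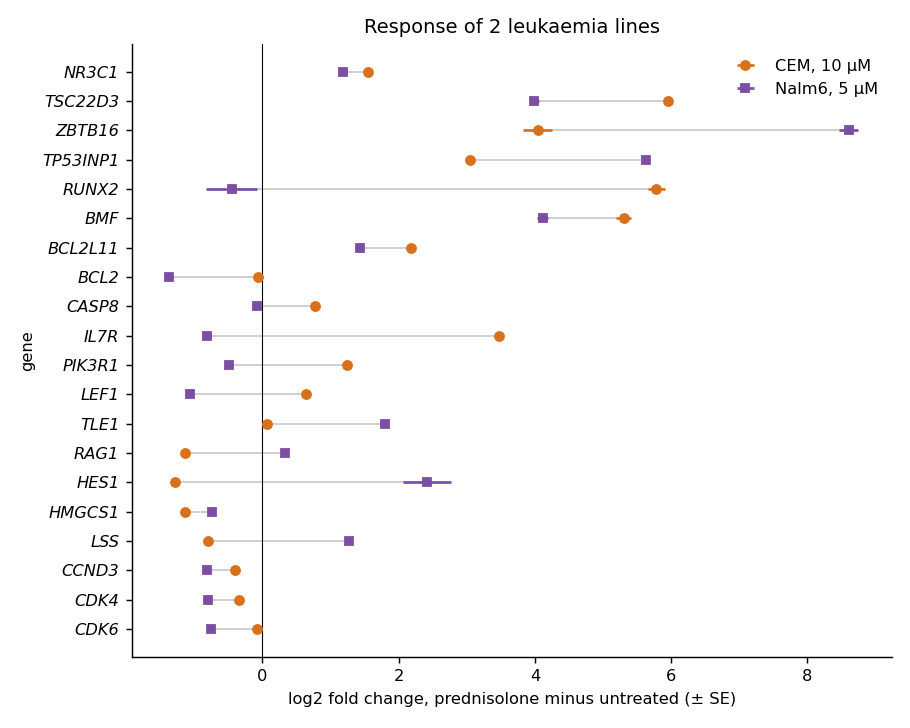
Points are log2 fold changes, prednisolone minus untreated, in CEM (orange, 10 µM) and Nalm6 (purple, 5 µM) for genes named in the text, with bars of 1 SE from edgeR (n = 3 libraries per group). IL7R, PIK3R1 and LEF1 lie on the positive side for CEM and the negative side for Nalm6, and RAG1, HES1 and LSS on opposite sides the other way round.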

How the data were processed

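RNA sequencing libraries of total RNA, per the labels (any selection of polyadenylated RNA is not given in the sources used here), were counted per gene by the authors, and the deposited files hold whole-number counts in the layout that STAR writes, with 1 column without strand and 1 for each strand. The submitters' processing notes name the build hg19, Bowtie2 and DESeq2, with no role given; the aligner and annotation are not given in the sources used here. The column of the second read's strand was used, since it held about 14 times the counts of the other, and the summary rows that name no gene (reads unmapped, multimapping, in no gene or ambiguous, of which those in no gene came to 19.3% to 21.4% of reads) stayed out of totals and tests. Of 62446 gene rows 58695 had a symbol in a table that pairs Ensembl IDs with names, and gene types are those of GENCODE v29. No coordinates of tested genes are given, as the annotation at hand is of another build; promoter windows were matched by symbol only.

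Genes were filtered with filterByExpr, scaled with TMM and tested with edgeR 4.0.16 (R 4.3.3) on the 3 untreated and 3 treated CEM libraries, and the standard error is the log2 fold change over the root of F. On simulated data for this comparison (16847 genes) 96% of 100 genes changed by 1 and 81% of 100 changed by 0.5 on the log2 scale were recovered, with 18 false calls. Only these genes were changed, as many up as down and all above a minimum expected count. In the data 45.1% of genes were called, so these rates may not hold there or for genes of low counts. The difference between lines was an interaction over 12 libraries. Alternatives were DESeq2 1.42.0, RLE factors, other filters, robust moderation, the counts without strand, all 3 CEM groups together, a replicate block, dexamethasone libraries of Nalm6, and leaving out each library. The gene lists and families, their members and the promoter motifs were chosen with earlier results of these data known. Genes named are the 15 largest rises and falls (average log2 CPM of at least 1, groups apart), the key members of each list and the 4 largest called changes each way in a list or family. Other genes named, among them most of those not called, were chosen after their values were seen. Some genes and a gene list are not reported here.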

Additional observations from a re-analysis of the deposited data

Results flagged for a closer look

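Of the genes named in the report, 23 were called in both lines in opposite directions, with a log2 fold change of at least 0.25 either way, and differed in edgeR's test of the difference (adjusted p at most 0.00177, for MYCL, n = 3 libraries per group). The line, the dose, the library set and possibly the medium changed together and cannot be told apart. The smallest log2 fold changes here lie close to that limit.

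IL7R, the interleukin receptor that sustains early lymphocytes, had a log2 fold change of 3.48 in CEM and -0.82 in Nalm6, a difference of 4.31. LEF1, the Wnt effector, had 0.64 in CEM and -1.06 in Nalm6, a difference of 1.71. PIK3R1, the regulatory subunit of PI3K, had 1.24 in CEM and -0.50 in Nalm6, a difference of 1.74. The other genes that rose in CEM and fell in Nalm6 were, with the CEM value, the Nalm6 value and the difference, BID (0.40, -0.49 and 0.899), BIK (0.62, -0.35 and 0.977), DUSP1 (0.30, -0.25 and 0.563), SMC4 (0.27, -0.25 and 0.538), TGFBR2 (0.98, -0.27 and 1.27), TRAC (0.90, -1.04 and 1.96). At low levels in CEM the same held for NR3C2 (1.02, -0.39 and 1.42), MYCL (0.60, -0.45 and 1.06), STAT4 (2.62, -0.54 and 3.18) and ROR1 (3.76, -1.47 and 5.25). Without treated CEM library 1 the CEM value of MYCL was 0.332 and not called.

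HES1, the Notch target, had a log2 fold change of -1.29 in CEM and 2.41 in Nalm6, a difference of -3.67. RAG1, the recombinase, had -1.14 in CEM and 0.34 in Nalm6, a difference of -1.46, and LSS, of cholesterol synthesis, -0.80 in CEM and 1.27 in Nalm6, a difference of -2.05. The survival gene BCL2L1 had -0.42 in CEM and 0.54 in Nalm6, a difference of -0.951. TSHR, the thyrotropin receptor, had -1.68 in CEM and 1.01 in Nalm6, a difference of -2.68. Its Nalm6 levels were low, 0.377 ± 0.0490 CPM untreated and 0.774 ± 0.264 CPM treated. The other genes that fell in CEM and rose in Nalm6 were, in the same order of values, ABCA1 (-0.37, 1.16 and -1.51), BCL11B (-0.31, 0.27 and -0.562), BCL2L2 (-0.38, 0.26 and -0.625), CISH (-0.41, 0.79 and -1.19), NKD2 (-0.29, 1.31 and -1.58). Against the dexamethasone libraries of Nalm6 the differences of CISH and NKD2 were -1.82 and -2.70.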

How the results depend on the processing

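The number of genes called for prednisolone in CEM, 7842, was 6662 with DESeq2 and 7300 to 7905 under the other settings that kept all libraries, and 6798 to 7884 with 1 library left out. The number that changed 2-fold or more, 647, was 908 with no filter and 666 to 735 with 1 library left out. It was 378 where every library needed at least 10 counts, a filter that removes genes silent in 1 group. The same filter gave 526 in place of 992 for the difference between the lines. With the dexamethasone libraries of Nalm6 that comparison called 6552 genes, 1289 of them with an absolute difference of at least 1. Only 79.5% of the 5513 genes were called again in the same direction, and 28 were called in the opposite one. The calls of the genes named here held, though the differences of TSC22D3 and BCL2L11 fell from 1.98 and 0.77 to 0.711 and 0.433. The replicate numbers do not pair the libraries (correlations of same-numbered deviations -0.02, -0.02 and -0.01), and with a replicate block 7826 genes were called. Of 1428 list counts recomputed, 78 moved by over 1.5 times. These include the rises among mitochondrial DNA genes (2, and 0 to 12), Notch falls (8, and 5 without treated library 2), BCL2 family falls (5, and 3 with DESeq2 or without treated library 2), NF-kB falls (4, and 7 without untreated library 2) and KLF rises (4, and 2 without untreated library 1). The call of BAX was lost in 7 alternatives, of FZD7 in 5, of CTPS2 in 4, of ADSL and MYCL in 2 and of HSPA5, CTSB, MYCN and VPREB1 in 1. Of genes not called, PIK3CA was called in 4, DLL1, JAG2 and LDHB in 3, CD38, PLK1 and RGS2 in 2 and BBC3, DLL4, IL2RG and TSC22D2 in 1. MT-RNR1, not called, ranged from -1.098 without untreated library 3 to 0.511 without untreated library 2.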

Other observations

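Gene families outside the pathways above are given by their counts, against 22.3% rises and 22.8% falls over all genes. Collagens gave 6 rises and no fall of 14 tested (44 in the family) and semaphorins 5 rises and no fall of 10. Zinc finger genes gave 132 rises (28.3%) and 68 falls (14.6%) of 466, and DEAD-box helicases 4 rises (11.1%) and 18 falls (50%) of 36. Among solute carriers 46 rose (21.2%, near the share of all genes) and 71 fell (32.7%) of 217 tested. SLC18A2, which loads monoamines into vesicles, rose from 52.1 ± 1.24 to 261 ± 3.74 CPM (SD, n = 3; log2 fold change 2.30 ± 0.03), and SLC6A9, a glycine transporter, fell from 2.75 ± 0.268 to 0.644 ± 0.228 CPM (-2.08 ± 0.19).

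Among tubulins 4 rose (25%) and 7 fell (43.8%) of 16 tested. TUBA4A rose from 17.5 ± 0.978 to 133 ± 2.52 CPM (2.90 ± 0.04). PDE3A, a cyclic nucleotide phosphodiesterase, had no count in the untreated libraries and 0.712 ± 0.222 CPM in the treated ones, at least 9.74-fold higher against a floor of 3 counts per untreated library. Metallothioneins, which bind zinc and copper, gave 4 rises and 1 fall of 6 tested, with MT1X at 0.75 and MT2A at 0.41. ABCB1, the drug efflux pump, rose by 0.99 from 0.614 ± 0.103 CPM. Of 39 HOX genes 3 were tested and none was called.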
